A study of Mus musculus with 3 samples.

Results

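The genes described here are 10 genes of fatty acid handling and adipocyte identity, Gpihbp1, Lpl, Cd36, Fabp4, Fabp5, Meox2, Pparg, Cebpa, Adipoq and Plin1, taken by symbol from the 32285 mouse genes of the deposited feature lists. All 10 symbols matched 1 gene each. Their levels were read in single-cell RNA sequencing libraries of nonhematopoietic thymus cells, and the question was which stromal cells carried these transcripts and whether any cell barcode carried the genes of an adipocyte. Mice were untreated C57BL/6 animals aged 20 months, their thymi were pooled, and cells lacking CD45 were enriched with magnetic beads and flow sorting. There were 3 libraries, each the only one of its group (n = 1): Foxn1Lin female and Foxn1Lin male, in which Foxn1-Cre switches on a Rosa26 tdTomato reporter in cells that have expressed the thymic epithelial factor Foxn1, and wild type male, without these alleles. The cell type label of wild type male names a PECAM1+ sort while its title does not, and 862 of its 5478 called barcodes were classed as endothelial here, leaving out those that met a second gate. The protocol text names female mice for all 3 libraries while 2 are labelled male, so sex is given only as labelled. The paper names male and female mice for its single-cell data of this age, without a sex for each library.

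Fatty acids travel in blood inside triglyceride-rich lipoproteins or bound to albumin. At the capillary wall GPIHBP1 holds lipoprotein lipase, the product of Lpl, which frees fatty acids from triglyceride, and CD36 takes them up. FABP4 and FABP5 carry them through the cytoplasm, and MEOX2 and PPARγ are transcription factors known to act on these uptake genes in endothelium. In fat cell precursors PPARγ and C/EBPα drive the adipocyte programme, of which the hormone adiponectin (Adipoq) and the lipid droplet coat perilipin 1 (Plin1) are late products, and adipose tissue is known to spread into the thymus with age.

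Cells were classed by unique molecular identifiers (UMIs, each standing for 1 captured transcript) of gate genes that are not among the 10: endothelial cells (EC, at least 2 UMIs of Pecam1), fibroblasts (FB, at least 2 of Pdgfra), mural cells (at least 5 of Rgs5 and Acta2 together), thymic epithelial cells (TEC, at least 2 of Epcam) and mesothelial cells (at least 2 of Upk3b). Of 17677 called barcodes, 3568 were EC, 4425 FB, 1229 mural, 1775 TEC and 376 mesothelial, 1213 met 2 gates or more and were dropped, and 5091 met none. Foxn1Lin male held 0 mesothelial barcodes. Marker genes other than the gate genes were highest in their own class in every library, except Krt19 of TEC in Foxn1Lin female and wild type male. Libraries held 33386621 to 61258534 UMIs in called barcodes, with medians per barcode of 4675, 7431 and 7947 UMIs in the library order used throughout, which is Foxn1Lin female, then Foxn1Lin male, then wild type male. Free RNA, meaning UMIs of barcodes not called as cells, made up 26.5% of all UMIs in Foxn1Lin female, the most of the 3, and 12.9% and 9.46% in the male libraries, Foxn1Lin first. Pairs of libraries shared 3 to 14 barcode sequences.

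Levels are UMIs of a gene per 1000000 UMIs of its class and library (CPM). UMIs were counted at the 3′ end, so levels are compared between classes and libraries, not between genes. Each class was tested against the mean of the other 3 of EC, FB, mural cells and TEC with edgeR, with the libraries as replicates and as a block, and a gene was called at a Benjamini-Hochberg adjusted p under 0.05. The 3 libraries differ in labelled sex and in genotype, so these p-values measure the spread between pools of unlike animals. Because depth differs between libraries and classes, shares of barcodes with a UMI are given after drawing each barcode down to 2000 UMIs, with shallower barcodes left out. Free RNA in droplets can give UMIs to cells that do not make a transcript, so the share in TEC or FB is printed beside shares in other classes, and how much of it is free RNA was not tested.

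EC carried the capture and uptake genes. Of 9 members tested, 7 were higher in EC and 1 was lower, where 24.2% of 16559 genes were higher and 24.6% lower, 48.8% in all. Plin1 did not pass the filter on low counts and was not tested.

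Gpihbp1 (chromosome 15, 75596628 to 75599481, plus strand of GRCm38), the anchor of lipoprotein lipase on capillaries, stood in EC at 1684 (Foxn1Lin female), 1205 (Foxn1Lin male) and 419 (wild type) CPM. In FB it was 19.6, 2.09 and 1.12 CPM, in mural cells 105, 5.83 and 1.25 CPM and in TEC 16.1, 2.02 and 0.933 CPM in the same library order, so EC was the highest class in every library. The log2 difference of EC from the other classes was 7.85 ± 0.48 (SE), adjusted p = 2.41e-06. After drawing down to 2000 UMIs, 83.7, 58.1 and 44.2% of EC had a Gpihbp1 UMI in library order, against 4.88, 0.244 and 0.471% of TEC. Both shares and levels outside EC were highest in Foxn1Lin female, where Gpihbp1 in free RNA was also highest, at 481 CPM against 245 and 51.4 CPM. The part of free RNA in the values outside EC was not tested.

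Lpl (chromosome 8, 68880491 to 68907448, plus strand), the lipase itself, was shared by FB and EC. Its FB level was 637 (Foxn1Lin female), 396 (Foxn1Lin male) and 639.7 (wild type) CPM. In EC the level was 319.8, 615 and 156 CPM, in mural cells 172, 54.7 and 93.4 CPM and in TEC 59, 13.5 and 24.9 CPM, in the same order. FB was the highest class in Foxn1Lin female and wild type male and EC in Foxn1Lin male, and the ranges of FB and EC over the libraries overlapped, as did those of EC and mural cells and those of mural cells and TEC. Lpl was higher in FB (2.53 ± 0.41 (SE) on the log2 scale, adjusted p = 0.00113) and in EC (1.84 ± 0.45 (SE), adjusted p = 0.0083) and lower in TEC (-3.56 ± 0.57 (SE), adjusted p = 0.000534). The EC call rested on Foxn1Lin male: without that library the difference was 0.72 and the adjusted p 0.0677, with 0.000385 to 0.0677 over all alternatives. Of FB drawn down to 2000 UMIs, 60.7, 46.5 and 60.9% had an Lpl UMI, against 8.2, 2.44 and 2.59% of TEC.

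Cd36 (chromosome 5, 17781690 to 17888801, minus strand), which takes up long-chain fatty acids, stood in EC at 1789.7 (Foxn1Lin female), 2252 (Foxn1Lin male) and 2324 (wild type) CPM. Mural cells held 274, 68.5 and 29.5 CPM, FB 30.4, 3.59 and 4.6 CPM and TEC 17.2, 3.41 and 3.35 CPM. The EC values did not overlap those of any other class, and the difference was 7.48 ± 0.49 (SE) on the log2 scale, adjusted p = 3.45e-06. A Cd36 UMI was found in 86.3, 76.8 and 78.8% of EC at 2000 UMIs and in 5.99, 1.22 and 0.824% of TEC. Macrophages also carry Cd36, and the summed level of 8 macrophage markers in EC was 26.7 to 98.0 CPM. Without the barcodes that had a UMI of the leukocyte gene Ptprc, EC kept 8 called members.

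Fabp4 (chromosome 3, 10204088 to 10208576, minus strand), a fatty acid carrier of capillary endothelium, adipocytes and macrophages, reached 14268 (Foxn1Lin female), 13493 (Foxn1Lin male) and 8501 (wild type) CPM in EC. The mural level was 2599.8, 1071 and 404 CPM, the TEC level 363, 197 and 154 CPM and the FB level 258, 35.3 and 51.4 CPM. EC was highest in every library, by 5.66 ± 0.35 (SE) on the log2 scale (adjusted p = 2.69e-06). Nearly all EC had a Fabp4 UMI, 96.6, 91.9 and 90.9% at 2000 UMIs. The share in TEC was 37.5, 14.9 and 12.2%, and free RNA held 4669, 3664 and 1432 CPM of Fabp4. Of mural barcodes 75.3, 36 and 22.2% had a Fabp4 UMI, above the TEC share in each library. In FB of wild type male, 469 of 782 Fabp4 UMIs lay in 1 barcode, described below among those with adipocyte genes, and the FB level without barcodes of that kind was 20.6 CPM.

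Fabp5 (chromosome 3, 10012548 to 10016607, plus strand), the carrier known from epidermis and other epithelia, was highest in TEC. The TEC level was 4024 (Foxn1Lin female), 1488 (Foxn1Lin male) and 1245 (wild type) CPM, against 798, 212 and 250.2 CPM in EC, 289, 32.1 and 120.4 CPM in mural cells and 92.2, 19.8 and 23.9 CPM in FB. Mesothelial cells held 565 CPM in Foxn1Lin female and 259.7 CPM in wild type male, where they were 36 barcodes. The TEC difference was 3.83 ± 0.25 (SE), adjusted p = 2.51e-06. In EC the gene passed with a difference of 0.95 ± 0.25 (SE) (adjusted p = 0.0123), a call lost with doubled gates (adjusted p = 0.0861) and without the library block (adjusted p = 0.298), with 0.00521 to 0.298 over all alternatives. At 2000 UMIs 70.5, 46.8 and 41.9% of TEC had a Fabp5 UMI and 15.7, 4.07 and 4.81% of FB.

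The regulators split between vessel and epithelium. Meox2 (chromosome 12, 37108540 to 37179534, plus strand), a homeobox factor of vessels and mesoderm, followed the order EC, mural cells, FB and TEC in all 3 libraries. EC held 107 (Foxn1Lin female), 141 (Foxn1Lin male) and 181 (wild type) CPM, mural cells 67.4, 69.2 and 85.5 CPM, FB 19.2, 30.5 and 32.7 CPM and TEC 1.23, 0.931 and 0.439 CPM. The ranges over libraries did not overlap between neighbors in this order. The difference was 3.78 ± 0.19 (SE) in EC, 2.48 ± 0.20 (SE) in mural cells and -6.80 ± 0.33 (SE) in TEC, with adjusted p of 9.25e-07, 2.13e-05 and 8.05e-07. In free RNA Meox2 was at 33.6 to 44.9 CPM, above the FB level.

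Pparg (chromosome 6, 115360951 to 115490399, plus strand), the nuclear receptor PPARγ, was 223, 245 and 218 CPM in EC in library order, while EC without venous or arterial markers held 257, 413 and 341 CPM. Mural cells held 197, 42.6 and 47.7 CPM, FB 30.5, 5.68 and 7.95 CPM and TEC 5.84, 2.02 and 1.87 CPM. Pparg was higher in EC (4.39 ± 0.32 (SE), adjusted p = 6.44e-06) and in mural cells (1.98 ± 0.33 (SE), adjusted p = 0.00161) and lower in TEC (-4.78 ± 0.47 (SE), adjusted p = 2.89e-05). Its lower value in FB (-1.59 ± 0.38 (SE), adjusted p = 0.00865) lost the call without Foxn1Lin male (adjusted p = 0.0809), without wild type male (adjusted p = 0.103) and without the block (adjusted p = 0.123), with 7.12e-05 to 0.123 over all alternatives. In EC at 2000 UMIs 33.2, 32.3 and 28.8% had a Pparg UMI, against 0.887, 0.244 and 0.353% of TEC.

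Cebpa (chromosome 7, 35119293 to 35121928, plus strand), which encodes the adipogenic factor C/EBPα that also acts in epithelia, was highest in TEC. Levels were 24.9 (Foxn1Lin female), 53.5 (Foxn1Lin male) and 43.7 (wild type) CPM in TEC, 20.7, 16.7 and 18.5 CPM in FB, 9.34, 13.5 and 11.2 CPM in mural cells and 8.65, 11.2 and 7.62 CPM in EC. TEC did not overlap the other classes over the libraries, and the ranges of mural cells and EC overlapped. The difference was 1.34 ± 0.19 (SE) in TEC (adjusted p = 0.000246) and -1.02 ± 0.22 (SE) in EC (adjusted p = 0.00405, 0.0684 without wild type male, 0.000175 to 0.0684 over all alternatives). Cebpa did not pass in FB (adjusted p = 0.192).

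Adipoq (chromosome 16, 23146536 to 23158028, plus strand) and Plin1 (chromosome 7, 79720218 to 79732903, minus strand) were near the detection limit in every class. Adipoq counted 7, 6 and 1 UMIs in EC, 23, 0 and 9 in FB, 4, 1 and 2 in mural cells and 11, 24 and 17 in TEC, with at most 3.72 CPM in any class. Plin1 counted 12, 1 and 0 UMIs in EC and 42, 1 and 14 in FB, with at most 2.94 CPM. In FB of Foxn1Lin female a single barcode held 20 of 23 Adipoq UMIs and 34 of 42 Plin1 UMIs. Where a class held 0 UMIs, as Adipoq in FB of Foxn1Lin male, the count allows up to 0.348 CPM (3 UMIs, counting error only). Adipoq did not pass the test in any class (adjusted p = 0.368 in EC, 0.74 in FB, 0.914 in mural cells and 0.184 in TEC). In TEC it passed with doubled gates (2.34, adjusted p = 0.023, the lowest over the alternatives that do not pick barcodes by Adipoq, the highest being 0.597).

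**Figure D1:**
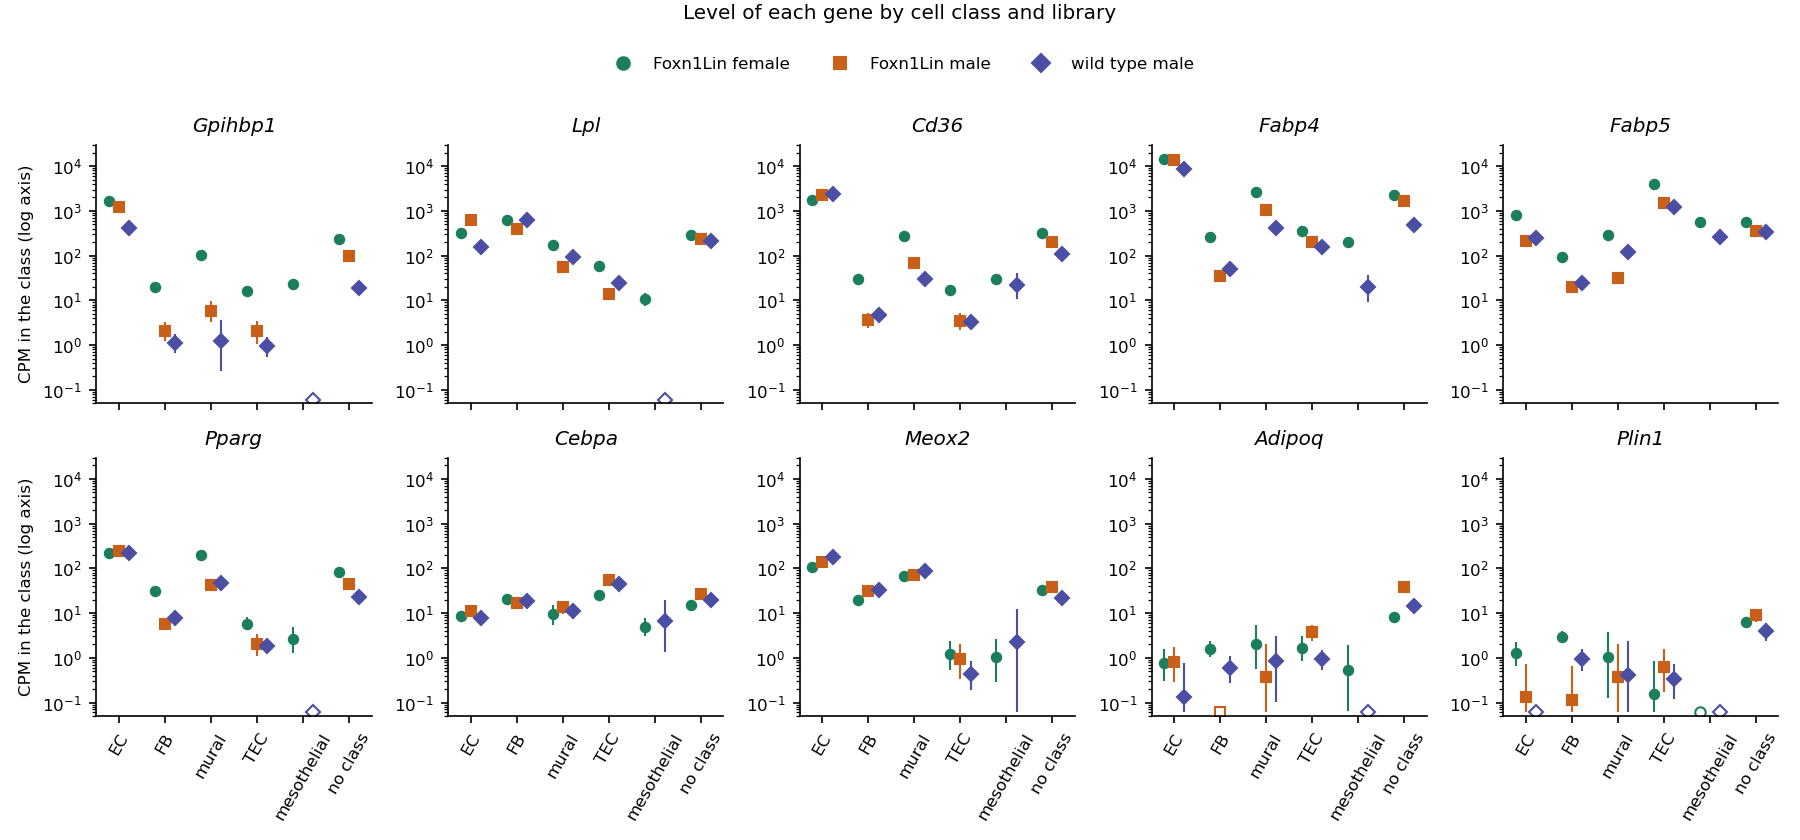
Level of each gene in CPM (vertical log axis) by cell class and library, with 95% Poisson intervals for counting error; open symbols at the lower edge mark 0 UMIs and no class means called barcodes meeting no gate. Gpihbp1, Cd36, Fabp4, Pparg and Meox2 were highest in EC in all 3 libraries, Fabp5 and Cebpa in TEC, and Adipoq and Plin1 had their highest value among barcodes of no class in every library.

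Across the remaining classes, FB called 6 of 9 members tested, 1 higher and 5 lower (42.6% of all genes called, 21.5% higher and 21.2% lower). Lpl was the member that rose in FB. Gpihbp1, Cd36, Fabp4, Fabp5 and Pparg were lower, with differences of -3.22 ± 0.59 (SE), -3.58 ± 0.60 (SE), -3.98 ± 0.48 (SE), -3.50 ± 0.34 (SE) and -1.59 ± 0.38 (SE) on the log2 scale. Mural cells called 3 of 9 (33% of all genes called, 18.3% higher and 14.7% lower): Meox2 and Pparg were higher and Fabp5 lower (-1.28 ± 0.30 (SE), adjusted p = 0.00943, lost with doubled gates at 0.139 and without the block at 0.27, 0.000171 to 0.27 over all alternatives). TEC called 8 of 9 (59% of all genes called, 31.6% higher and 27.4% lower): Fabp5 and Cebpa were higher and the other 6 lower. Gpihbp1 was not called in mural cells (adjusted p = 0.365) but was without Foxn1Lin female (-1.75, adjusted p = 0.00226, 0.00226 to 0.99 over all alternatives). Meox2 was not called in FB (adjusted p = 0.0631) and was without Foxn1Lin female (adjusted p = 0.00888) and with no filter on low counts (adjusted p = 0.0434, 0.00888 to 0.261 over all alternatives). Gpihbp1 in FB and in TEC lost its call without the block, with adjusted p of 0.132 and 0.0505 (3.04e-08 to 0.132 and 2.42e-11 to 0.0505 over the alternatives).

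**Figure D2:**
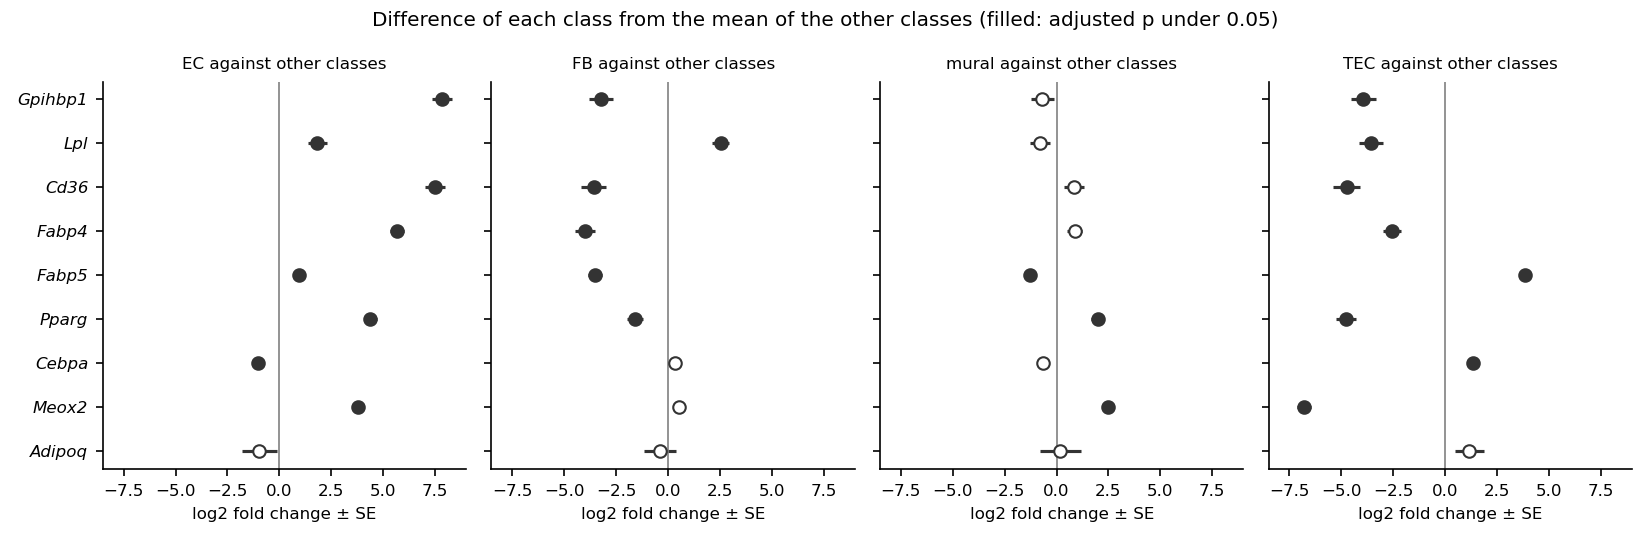
Log2 fold change ± SE (horizontal axis) of each of 9 members in 1 class against the mean of the other 3 classes, from edgeR over 3 libraries; filled points had an adjusted p under 0.05. The EC differences run from 7.85 for Gpihbp1 to −1.02 for Cebpa, and Fabp5 and Cebpa lie right of 0 in TEC.

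Within EC the capture and uptake genes were lower in cells with venous markers. EC were split by summed UMIs of venous markers (Selp, Ackr1, Vwf and Vcam1) and arterial markers (Gja4, Gja5, Hey1, Sema3g and Bmx), with at least 2 UMIs needed. The libraries differed in the shares found by this split: venous-marker EC were 12.8% of EC in Foxn1Lin female but 47.1% and 49.5% in Foxn1Lin male and wild type male. EC depth differed between the libraries as well, with medians of 3854, 7355 and 6954.5 UMIs in library order. Its part in these shares was not tested. Venous-marker barcodes were also deeper, with medians of 6425, 10102 and 9248 UMIs against 3332.5, 5243 and 4584 in the other EC, and a marker is found more readily in a deeper barcode, so depth moves with the split. Of 8 members tested, 5 were lower in venous-marker EC and 0 were higher, where 8.42% of 10930 genes were lower and 13.4% higher, 21.9% in all.

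Gpihbp1 was 1999.6 (Foxn1Lin female), 2204 (Foxn1Lin male) and 795 (wild type) CPM in the other EC and 769, 518 and 233 CPM in venous-marker EC. The difference was -1.59 ± 0.15 (SE) (adjusted p = 2.19e-05) and had the same direction in 3 of 3 libraries. Lpl fell from 386, 1099.5 and 288 CPM to 143, 284 and 86 CPM, a difference of -1.56 ± 0.13 (SE) (adjusted p = 1.24e-05). Both genes were lower in venous-marker EC of each library, and over the libraries the highest venous-marker value lay just under the lowest value of the other EC.

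Pparg was 257, 413 and 341 CPM in the other EC and 90, 120.0 and 122 CPM in venous-marker EC (-1.45 ± 0.11 (SE), adjusted p = 5.84e-06). Cd36 was 2031, 3602 and 3695 and 875, 1204 and 1497 CPM (-1.21 ± 0.11 (SE), adjusted p = 2.19e-05). Fabp4 was 16011, 22809.9 and 13071 and 7643, 7210.1 and 5956 CPM (-1.13 ± 0.12 (SE), adjusted p = 6.09e-05). Without the library block, 1 of the 5 calls was left, that of Pparg, with adjusted p of 0.195 for Gpihbp1, 0.295 for Lpl, 0.0757 for Cd36 and 0.0703 for Fabp4, and over all alternatives the adjusted p reached down to 1.63e-28, 8.80e-27, 5.96e-25 and 3.35e-19. Each of the 5 was lower in 3 of 3 libraries.

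Meox2 was not called between venous-marker and other EC (adjusted p = 0.193). Its venous level was 77.4 (Foxn1Lin female), 162 (Foxn1Lin male) and 215 (wild type) CPM against 112, 115 and 121 CPM in the other EC, lower in Foxn1Lin female and higher in both other libraries. Without Foxn1Lin female the difference was 0.86 with an adjusted p of 0.000624, with no filter on low counts it was 0.49 with 0.00564, and over all alternatives the adjusted p ran from 0.000624 to 0.775. Fabp5 and Cebpa were not called either (adjusted p = 0.738 and 0.461).

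No member was called between arterial-marker EC and the other EC. Gpihbp1 was 1683, 2088 and 569.6 CPM, Lpl 299, 1037 and 229 CPM and Pparg 266, 428 and 398 CPM in arterial-marker EC of the 3 libraries. Of 8 members 0 were called by edgeR, 0 had an unadjusted p under 0.05 and DESeq2 called 0, with 4.21% of all genes called, 2.3% higher and 1.91% lower. The log2 differences lay between −0.24 ± 0.19 (Fabp5) and 0.56 ± 0.26 (Cebpa), with adjusted p from 0.309 to 0.928.

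**Figure D3:**
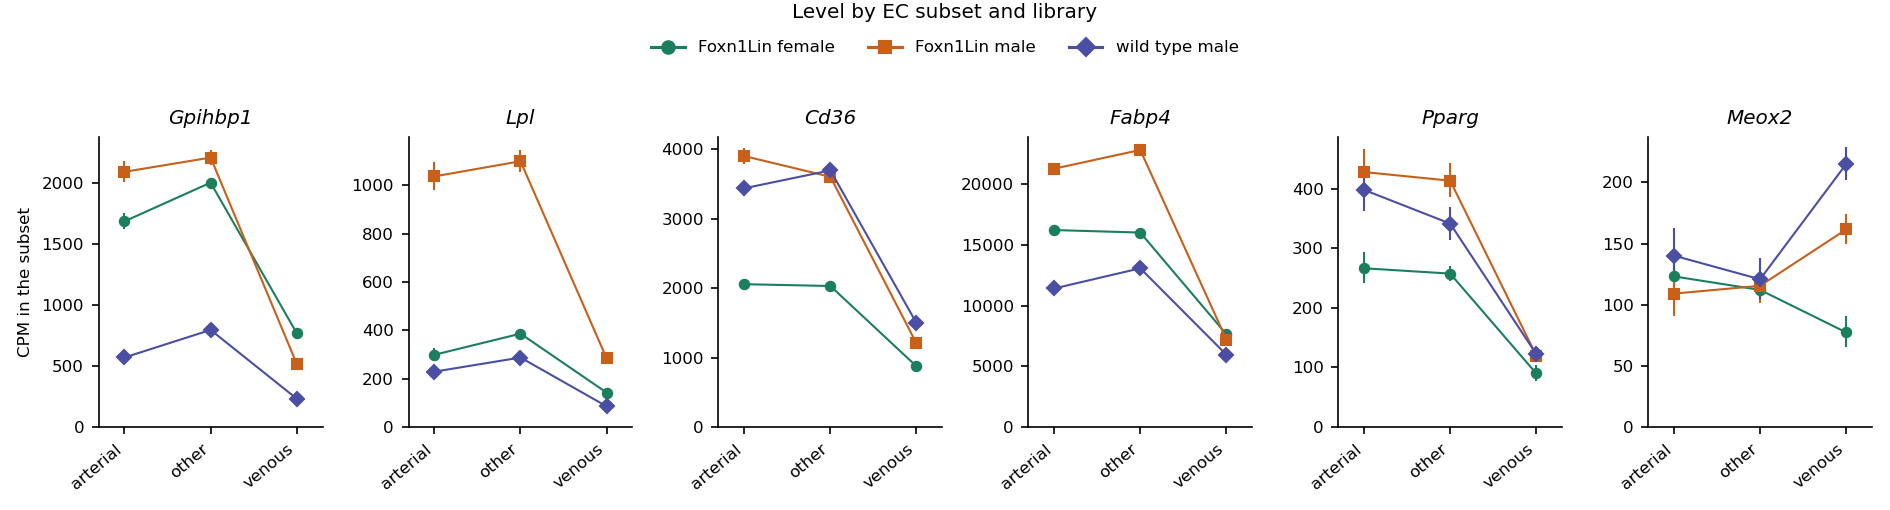
CPM (vertical axis, from 0) of 6 genes in arterial-marker, other and venous-marker EC of each library, with 95% Poisson intervals for counting error. Gpihbp1, Lpl, Cd36, Fabp4 and Pparg were lowest in venous-marker EC in all 3 libraries, while Meox2 was highest there in Foxn1Lin male and wild type male and lowest in Foxn1Lin female.

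Joint detection of the capture and uptake transcripts was read in EC barcodes. In EC drawn down to 2000 UMIs, Gpihbp1 and Cd36 were both detected in 78.3% (76.1 to 80.3), 56.2% (52.7 to 59.7) and 42.5% (39.1 to 45.9) of barcodes in library order, with 95% Clopper-Pearson intervals for counting error. Adding Fabp4 left 78.2, 55.6 and 41.9%. Gpihbp1 with its ligand Lpl was detected in 38.4, 39 and 16.4% of EC, lowest in wild type male. Cd36 was detected in 86.3, 76.8 and 78.8% and Gpihbp1 in 83.7, 58.1 and 44.2% of these barcodes, and such high single shares fix much of the overlap, so no association is read from it. Cd36 with Meox2 was at 17.4, 16.8 and 18.5%.

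Within FB, Pparg and Cebpa were higher and Meox2 was lower in cells with capsular markers than in cells with medullary markers. FB with at least 2 UMIs of Pi16 and Dpp4 and fewer than 2 of Ptn and Postn were taken as capsular-marker FB, and the reverse as medullary-marker FB. Capsular-marker FB were 704, 64 and 140 barcodes and medullary-marker FB 480, 692 and 1293 barcodes in library order, with median depths of 8615.5, 10553.5 and 8557.5 UMIs against 6013.5, 9418 and 8441 UMIs. Of 8 members tested, 2 were higher and 1 lower in capsular-marker FB, where 12.2% of 12152 genes were higher and 14.5% lower, 26.7% in all. Adipoq and Plin1 did not pass the filter.

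Pparg was 30.4 (Foxn1Lin female), 20.3 (Foxn1Lin male) and 26.4 (wild type) CPM in capsular-marker FB and 7.92, 0.859 and 3.14 CPM in medullary-marker FB. These values rest on 188, 14 and 33 UMIs against 25, 6 and 37 UMIs. The groups did not overlap and the difference was 2.82 ± 0.37 (SE) on the log2 scale, adjusted p = 0.000134.

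Cebpa was 20.6, 37.7 and 28.8 CPM in capsular-marker and 8.87, 13.6 and 14.4 CPM in medullary-marker FB, higher in 3 of 3 libraries (1.14 ± 0.21 (SE), adjusted p = 0.00159). Meox2 was lower, with 13.4, 5.8 and 22.4 against 25, 31.2 and 34.7 CPM (-0.95 ± 0.26 (SE), adjusted p = 0.0199). The Meox2 call was lost without Foxn1Lin female (adjusted p = 0.0868), without wild type male (adjusted p = 0.0501) and without the block (adjusted p = 0.0793), with 6.82e-05 to 0.0868 over all alternatives. Lpl did not pass, at 608, 373 and 602 against 498, 385 and 607 CPM (adjusted p = 0.677). In Foxn1Lin male the capsular-marker values of Pparg and Cebpa come from 64 barcodes with 14 and 26 UMIs.

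FB that met neither or both marker rules held Pparg at 44.9, 30.5 and 23.5 CPM and Cebpa at 28.4, 24.2 and 34.6 CPM, above the medullary-marker level of each library. Lpl there was 761, 494 and 839 CPM, the highest of the FB subsets in each library. Of the Adipoq and Plin1 UMIs of FB, 21 of 23 and 38 of 42 in Foxn1Lin female and 9 of 9 and 12 of 14 in wild type male were in this subset. In each of these libraries 1 barcode held most of them, with 20 Adipoq and 34 Plin1 UMIs in Foxn1Lin female and 8 and 11 in wild type male.

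**Figure D4:**
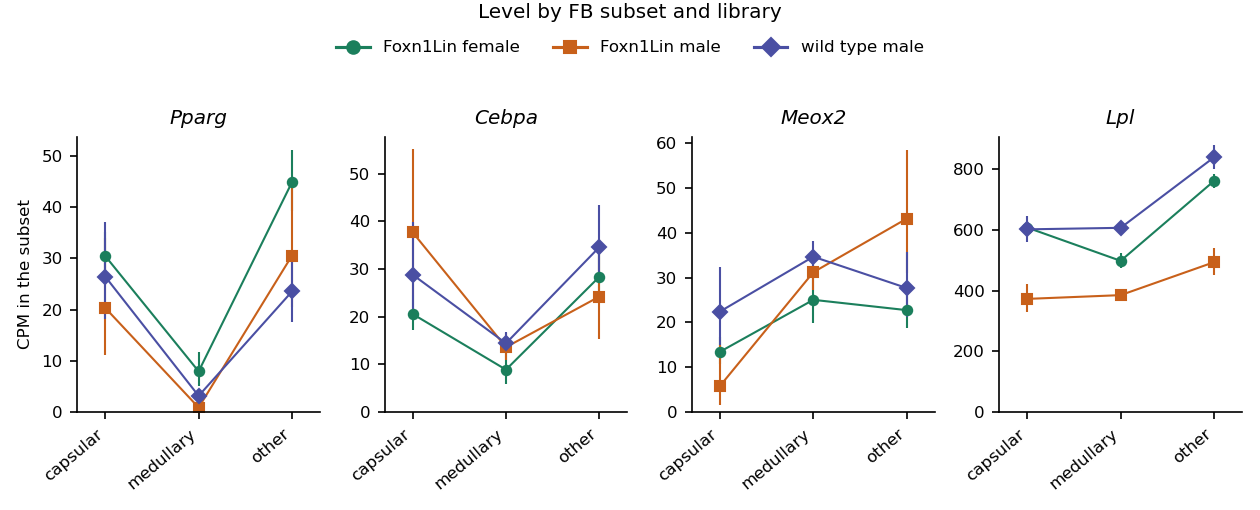
CPM (vertical axis, from 0) of Pparg, Cebpa, Meox2 and Lpl in capsular-marker, medullary-marker and other FB of each library, with 95% Poisson intervals for counting error. Pparg and Cebpa were lower in medullary-marker FB than in both other subsets in all 3 libraries, and Meox2 was lower in capsular-marker than in medullary-marker FB.

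Other genes of fatty acid uptake and transport were read from a list of 34 that includes members, of which 31 were tested. In EC 14 were higher and 11 lower (24.2% and 24.6% of all genes), with a median log2 difference of -0.16 beside -0.05 over all genes. Besides Gpihbp1 and Cd36 the highest was Scarb1, the lipoprotein receptor SR-BI, at 364, 732 and 856 CPM in EC and at most 26.4 CPM in another class (6.30 ± 0.25, adjusted p = 4.98e-07). In TEC 13 were higher and 14 lower, or 41.9% and 45.2% (31.6% and 27.4% of all genes). The highest there were Fabp6 and Fabp1, the ileal and liver carriers, and Slc27a2, an acyl-CoA synthetase of liver and kidney, with differences of 6.59 ± 0.37, 6.27 ± 0.22 and 6.01 ± 0.43. Fabp1 in TEC was 97.5, 34.9 and 14 CPM, and TEC are known to display transcripts of other organs to developing T cells. In FB 10 were higher, led by the receptor Lrp1 (3.65 ± 0.37), and 14 lower (21.5% and 21.2% of all genes). In mural cells 6 were higher, among them the caveolar genes Cav1 (2.60 ± 0.26) and Cavin1 (2.04 ± 0.17), and 5 lower, shares near those of all genes (18.3% and 14.7%).

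Between venous-marker and other EC, 9 of 24 tested uptake genes were lower and 3 higher, 37.5% and 12.5% beside 8.42% and 13.4% of all genes. Acsl1, which activates fatty acids with coenzyme A, was lower with Gpihbp1 and Lpl (-1.38 ± 0.20, adjusted p = 0.000552). The endothelial lipase gene Lipg was higher (2.31 ± 0.20, adjusted p = 1.48e-05), as was the lipoprotein receptor gene Vldlr (3.09 ± 0.57). In capsular-marker FB 5 of 25 were higher (12.2% of all genes) and 2 lower (14.5%), with Vldlr (2.36 ± 0.23), Cavin1 (2.02 ± 0.16) and Lrp1 (1.33 ± 0.12) in front.

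The list of adipogenic regulators held 23 genes, all tested between classes. In mural cells 12 were higher and 2 lower (18.3% and 14.7% of all genes), with a median of 0.91 beside -0.07 over all genes. Ebf2, a marker of fat cell precursors, led there (4.03 ± 0.42) at 382, 231 and 457 CPM and was also higher in FB (4.02 ± 0.40) at 574, 261 and 339.8 CPM. EC had 9 higher and 11 lower (24.2% and 24.6% of all genes). Leading in EC were Gata2 (41.1, 47.9 and 52.7 CPM in EC, adjusted p = 6.53e-07), known to hold back fat cell formation, and Tcf15 (5.27 ± 0.32), known as a partner of MEOX2 in capillaries of heart. Tcf15 in EC was 367 (Foxn1Lin female), 120.4 (Foxn1Lin male) and 79.7 (wild type) CPM, a different library order from that of Meox2, and like the uptake genes it was lower in venous-marker EC (-1.77 ± 0.12, adjusted p = 2.47e-06). FB had 10 higher, with Tcf21 (4.54 ± 0.50) first, and 4 lower (21.5% and 21.2% of all genes). TEC had 15 lower and 4 higher (27.4% and 31.6% of all genes), the largest rise being Ppargc1a (3.53 ± 0.24), a coactivator of mitochondrial genes. Between capsular-marker and medullary-marker FB, 6 of 20 tested regulators were higher and 7 lower, 30% and 35% beside 12.2% and 14.5% of all genes, with a median of -0.35 beside -0.03. There Ebf2 rose with Pparg and Cebpa (2.42 ± 0.12, adjusted p = 1.58e-07), while Meox1 (-2.85 ± 0.24), Gata3 (-2.62 ± 0.48) and Tcf21 (-1.76 ± 0.38) were lower.

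Lipid storage and oxidation genes followed other patterns. Of 24 tested genes of lipid droplets, synthesis and lipolysis, 6 were higher in EC and 10 lower, 25% and 41.7% beside 24.2% and 24.6% of all genes, so the higher count was near that of all genes. The lipases Lipe (4.17 ± 0.17, 157, 154 and 135 CPM in EC) and Mgll (4.13 ± 0.36) were higher in EC, and G0s2, an inhibitor of triglyceride lipase, was lower there (-4.08 ± 0.41) and higher in FB (3.06 ± 0.27). Plin4, a droplet coat protein related to perilipin 1, was highest in mural cells (6.30 ± 0.24), at 47.7, 43.4 and 26.6 CPM. In TEC Cidea (4.22 ± 0.59) and Dgat2 (3.16 ± 0.21) were among 5 higher genes, with 7 lower, or 20.8% and 29.2% of the list beside 31.6% and 27.4% of all genes. Of 17 genes of fatty acid oxidation, 10 were higher and 1 lower in mural cells, where 18.3% and 14.7% of all genes were. Acadm (1.66 ± 0.10) was at 119, 114 and 88.4 CPM there. In TEC 8 were higher and 6 lower (31.6% and 27.4% of all genes), in EC 2 and 5 (24.2% and 24.6%) and in FB 2 and 7 (21.5% and 21.2%). Pdk4, which slows glucose oxidation, was highest in TEC (2.98 ± 0.15).

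With 1 library a group, differences between libraries have no replicate check, and sex or genotype cannot be told apart from the library. Values are ratios of CPM within a class, with intervals for counting error, and a ratio of 2 or more is called past the fold. Foxn1Lin female against Foxn1Lin male gave 21 of 34 pairs of member and class past 2-fold. Of 8 members 1 (higher) was past the fold in EC, where 18.1% of all genes compared were, 14.2% higher and 3.91% lower. Of 10 members 7 (all higher) were past the fold in FB, where 18.7% of all genes compared were, 12.6% higher and 6.01% lower. Adipoq and Plin1 were among these 7 through 1 barcode of Foxn1Lin female, and without it they had 3 and 8 UMIs there, too few to be compared. Of 8 members 6 (all higher) were past the fold in mural cells, where 14% of all genes compared were, 9.28% higher and 4.7% lower. Among 8 members 7 (5 higher, 2 lower) were past the fold in TEC, where 17.7% of all genes compared were, 12.5% higher and 5.27% lower. In EC the member past 2-fold was Fabp5, 3.76-fold (95% counting interval 3.57 to 3.97) higher in Foxn1Lin female. The share of EC with venous markers moved with this comparison, at 12.8% and 47.1%, as did the depth of EC barcodes. Within the other EC alone Lpl was 386 CPM in Foxn1Lin female and 1099.5 CPM in Foxn1Lin male. Outside EC the values past 2-fold were higher in Foxn1Lin female for every member but Cebpa and Adipoq in TEC, with Gpihbp1 at 18.1-fold (95% counting interval 10.9 to 32.2) in mural cells and 9.38-fold (95% counting interval 5.83 to 16.1) in FB, and Cd36 at 8.46-fold (95% counting interval 5.88 to 12.6) in FB. Free RNA held 481 CPM of Gpihbp1 and 479 CPM of Cd36 in Foxn1Lin female, against 245 and 460 CPM in Foxn1Lin male. The share of UMIs outside called barcodes was the largest of the 3 libraries in Foxn1Lin female. Summed T cell markers in FB, mural cells and TEC were 39.4, 46.2 and 192 CPM in Foxn1Lin female. In Foxn1Lin male they were 4.4, 4.74 and 22.97 CPM. Red cell markers were 670, 237 and 129.6 against 0.348, 194 and 4.81 CPM in the same order. Macrophage markers were 28.1, 90.8 and 280 against 14.3, 8.75 and 139 CPM. Lymphatic EC markers went the other way in FB, at 11.05 against 18.54 CPM, but not in mural cells or TEC. The part of free RNA in the member ratios was not tested.

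Foxn1Lin male against wild type male gave 7 of 31 pairs past 2-fold. In EC this was 2 of 8 members, both higher, beside 10% of all genes compared, 3.09% higher and 6.96% lower. In FB this was 0 of 8, beside 10.9% of all genes compared, 3.24% higher and 7.69% lower. In mural cells this was 3 of 7, with 2 higher, beside 11.2% of all genes compared, 4.09% higher and 7.11% lower. In TEC this was 2 of 8, both higher, beside 15.2% of all genes compared, 5.2% higher and 10% lower. Gpihbp1 in TEC rests on 13 against 17 UMIs, and its ratio of 2.16-fold (95% counting interval 0.966 to 4.73) has an interval that includes 1. Adipoq in TEC, the other pair, rests on 24 against 17 UMIs, with 9 of the 24 in 1 barcode, and its ratio was 3.99-fold (95% counting interval 2.06 to 7.92). Both EC pairs were the partners at the capillary wall: Gpihbp1 was 2.88-fold (95% counting interval 2.76 to 3) higher and Lpl 3.94-fold (95% counting interval 3.69 to 4.2) higher in Foxn1Lin male. Cd36, Meox2, Pparg and Fabp4 in EC stayed within 2-fold, at 0.969, 0.781, 1.12 and 1.59. Within the other EC alone, without venous or arterial markers, Gpihbp1 was 2204 against 795 CPM and Lpl 1099.5 against 288 CPM in Foxn1Lin male and wild type male.

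Barcodes with adipocyte genes were few. A strict list of 6 adipocyte genes (Adipoq, Plin1, Cidec, Retn, Lep and Adrb3) was searched in all called barcodes, and those with a UMI of at least 2 of them numbered 17 of 8616, 6 of 3583 and 9 of 5478 in library order. Together these were 32 of 17677, or 0.181% (95% Clopper-Pearson interval 0.124 to 0.255, counting error only). Requiring 3 genes left 12 barcodes, and a separate rule, at least 4 of a broader list of 12 genes, found 20 barcodes. Among all barcodes of 500 UMIs or more, called or not, the count was 33 of 19722.

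In 11 of the 32 barcodes Adipoq and Plin1 were found together (5, 2 and 4 in library order), a distinction drawn after their values were seen. These 11 held 2925 to 57578 UMIs and 1627 to 7838 genes, and mitochondrial UMIs made up 0.055 to 12.1%. Of the 11, 9 met no class gate and 2 met the FB gate. They carried 5 to 11 of the 12 broad genes and the other 21 carried 2 to 8, so the ranges overlapped. The broad list includes the 6 strict genes, so the picks set part of both counts. Adipoq ran from 1 to 100 UMIs (median 8) and Plin1 from 1 to 34 (median 5). The 11 barcodes held 59.6, 78 and 59.7% of all Adipoq UMIs of called barcodes and 61.8, 73.3 and 61.7% of those of Plin1 in library order. As these genes picked the barcodes, their shares are raised by the pick. Of genes outside the pick, Cfd was at 65.3, 84.4 and 78.3% and Cidec at 19.3, 59.8 and 17.9%. Retn was at 45.5, 20.9 and 25.7% and Plin4 at 7.41, 6.58 and 10%.

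Other adipocyte genes were found in 3 to 11 of the same 11 barcodes. Car3, carbonic anhydrase 3, which is abundant in fat cells, had 10 to 826 UMIs and was found in 11 of 11. These barcodes held 71.1, 78.5 and 31.9% of the Car3 UMIs of called barcodes in library order. In wild type male, TEC held 716 Car3 UMIs and barcodes meeting 2 gates or more held 633. The lipase gene Lipe was found in 11 of 11, the droplet gene Cidec in 8 and the complement factor gene Cfd (adipsin) in 7. Retn (resistin) was found in 5 and the leptin gene Lep in 3 with 1 UMI each. Plin4 was found in 10, Adrb3 and Acvr1c in 6 each and Pck1 in 4. Of all Lipe UMIs of called barcodes these barcodes held 0.772, 1.88 and 1.97% in library order. EC held 1472, 1170 and 1007 Lipe UMIs. Of the brown fat genes, Ucp1, Cidea and Elovl3 were at 0 UMIs in all 11 and Cox8b was found in 3. Leukocyte, mural and mesothelial genes (Ptprc, Rgs5, Acta2 and Upk3b) were at 0 in all 11. Of the other gate genes, Pdgfra was found in 4 with 24 UMIs, Pecam1 in 3 with 3 UMIs and Epcam in 1 with 1 UMI.

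The fatty acid members were read in the same 11 barcodes. Fabp4 was found in 11 of 11, with 4 to 989 UMIs, and Lpl in 11 of 11, with 2 to 199 UMIs. Summed per library, Lpl reached 2280.4 (Foxn1Lin female), 3630.5 (Foxn1Lin male) and 2663 (wild type) CPM, above the level of every class, and Cd36 344, 1431 and 389.5 CPM, below that of EC. Pparg and Cebpa were each found in 9 of 11 barcodes, at 153, 353 and 305 CPM and 127, 602 and 379 CPM. Gpihbp1, the EC member with the widest difference between classes, was at 0 UMIs in all 11 barcodes of 221686 UMIs, and Meox2 had 1 UMI. As the barcodes were picked by 2 adipocyte genes, these sums are a description with no test.

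Single barcodes show how unlike the 11 were in depth and content. In Foxn1Lin male a barcode of no class with 33916 UMIs held 100 Adipoq, 30 Plin1, 45 Cidec, 826 Car3, 989 Fabp4, 133 Lpl, 14 Pparg and 9 Cebpa UMIs. In wild type male a barcode of no class with 16790 UMIs carried all 6 strict genes, with 58 UMIs of Adipoq, 11 of Plin1, 44 of Retn and 16 of Pparg. By contrast the FB-gated barcode of wild type male, with 57578 UMIs and 19 of Pdgfra, had 8 Adipoq and 11 Plin1 UMIs beside 469 of Fabp4, 199 of Lpl and 21 of Cebpa. At low depth a barcode of Foxn1Lin female with 3637 UMIs had 1 Adipoq and 4 Plin1 UMIs and carried 10 of the 12 broad genes. The shallowest, with 2925 UMIs in wild type male, had 3 Adipoq and 5 Plin1 UMIs and also carried 10.

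In the remaining 21 barcodes Adipoq and Plin1 did not occur together. They were EC, TEC, barcodes meeting 2 gates or barcodes of no class, Adipoq reached at most 13 UMIs and Plin1 at most 10, and Car3 at most 31. Retn counted 42, 24 and 79 UMIs in TEC in library order. In free RNA Adipoq was at 5.91, 3.24 and 1.88 CPM. Whether free RNA or joined cells gave these UMIs was not tested.

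**Figure D5:**
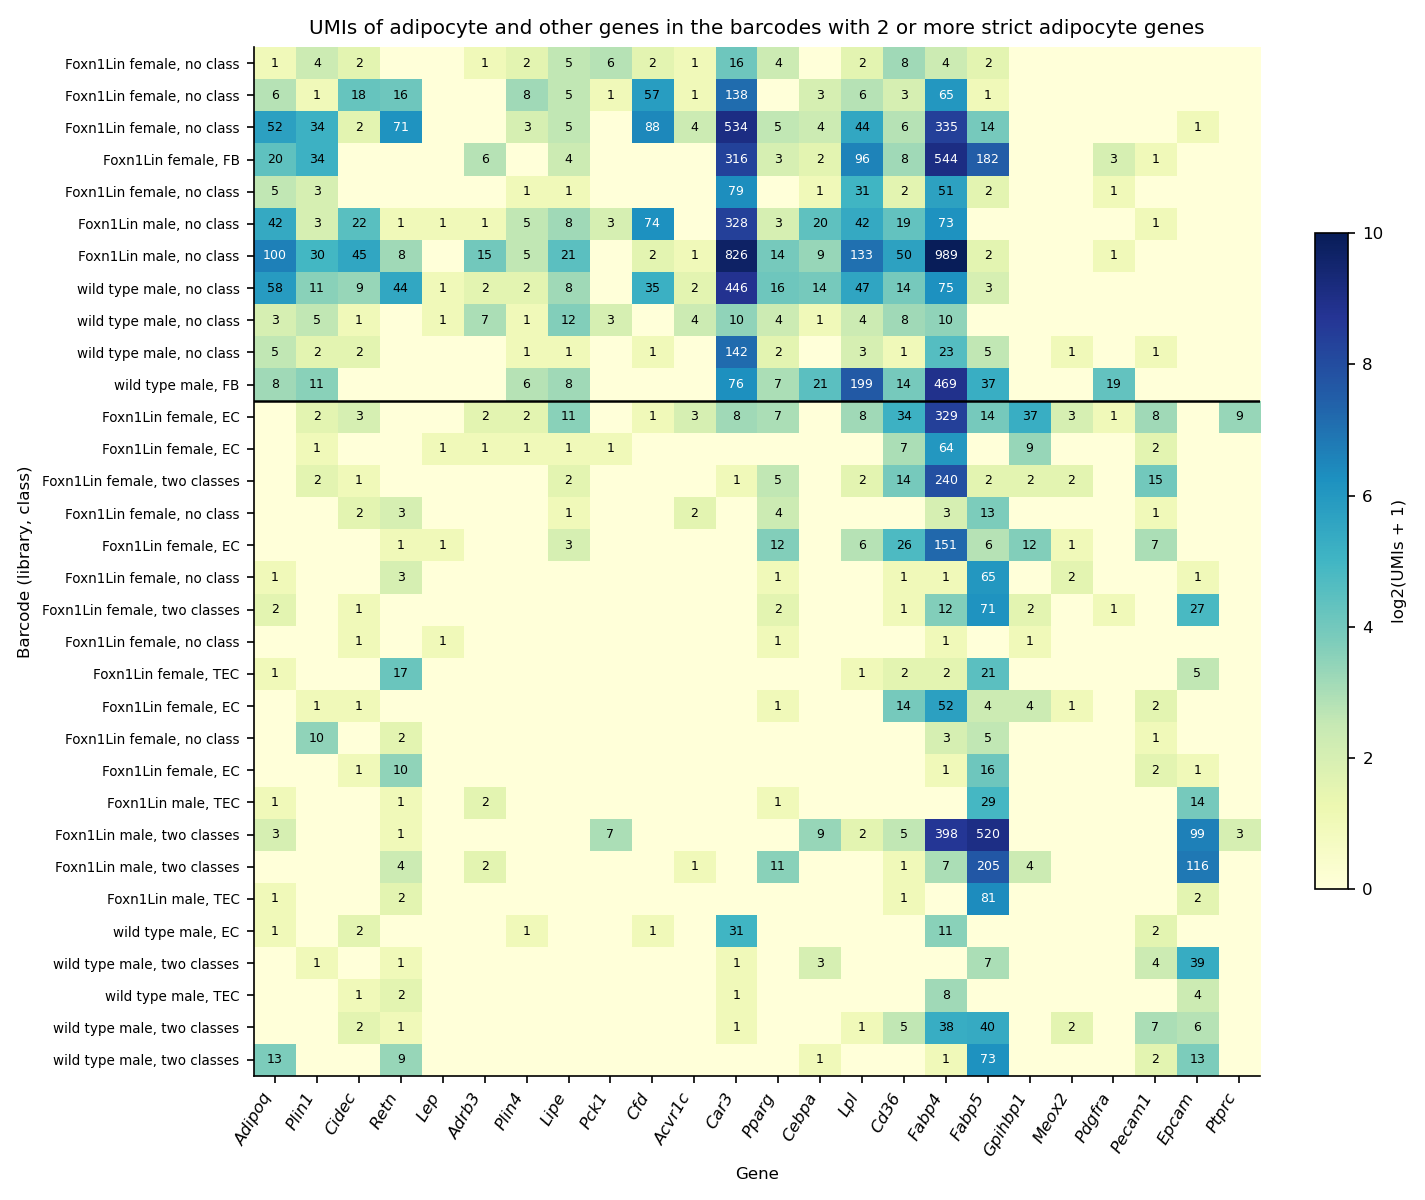
UMIs (numbers and color, on a log2(UMIs + 1) scale) of 24 genes (columns) in the 32 called barcodes with at least 2 of 6 strict adipocyte genes (rows, named by library and class); the line separates the 11 barcodes with both Adipoq and Plin1, above, from the other 21. Car3, Fabp4 and Lpl fill every row above the line, and Gpihbp1 and Ptprc are empty there.

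Sequence at the start of these genes is shown for the 2 markers that defined the 11 barcodes and for start 3 of Pparg as listed, whose product acts on both. RefSeq promoters (250 bases before to 50 after a start, GRCm38.p6) were listed for 6 of the 10 members, Cd36, Meox2, Pparg, Cebpa, Adipoq and Plin1, with 8 starts in all. Both strands were searched for the C/EBP motif TTNNGCAA, for the nuclear receptor half-site AGGTCA and for the direct repeat of that half-site with 1 base between, bound by PPARγ with RXR, and matches are in capitals, 5′ to 3′ on the strand of the gene.
Adipoq (chr16:23146286-23146585, plus strand): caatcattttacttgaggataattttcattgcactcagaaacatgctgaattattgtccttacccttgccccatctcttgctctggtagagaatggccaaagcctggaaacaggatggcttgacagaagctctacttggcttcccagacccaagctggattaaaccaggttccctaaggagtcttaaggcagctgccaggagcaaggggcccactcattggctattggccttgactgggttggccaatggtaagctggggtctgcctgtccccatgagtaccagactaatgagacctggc
Plin1 (chr7:79732727-79733026, minus strand): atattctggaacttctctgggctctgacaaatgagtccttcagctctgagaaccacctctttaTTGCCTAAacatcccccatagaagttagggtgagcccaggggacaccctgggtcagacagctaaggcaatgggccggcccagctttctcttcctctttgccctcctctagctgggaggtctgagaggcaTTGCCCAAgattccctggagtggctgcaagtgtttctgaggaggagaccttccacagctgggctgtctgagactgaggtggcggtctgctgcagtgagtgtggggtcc
Pparg, start 3 (chr6:115421816-115422115, plus strand): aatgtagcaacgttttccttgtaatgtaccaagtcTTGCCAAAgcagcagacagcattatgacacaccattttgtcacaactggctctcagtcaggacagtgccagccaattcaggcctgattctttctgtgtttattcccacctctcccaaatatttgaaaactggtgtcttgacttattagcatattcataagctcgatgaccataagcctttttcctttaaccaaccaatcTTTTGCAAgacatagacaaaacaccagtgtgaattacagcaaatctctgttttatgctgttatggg

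The C/EBP motif occurred 2 times in the Plin1 window and 2 times in the window of Pparg start 3, and 0 times in that of Adipoq, and 10.8% of 32851 promoters held it. The half-site, held by 16.3% of promoters, occurred 1 time each in Cd36 and in starts 1 and 2 of Pparg. The full direct repeat was in 0 of the 8 windows and in 13 of all promoters, or 0.0396%. These counts say only which letters lie in the window.

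For 4 members the most similar genes were found over the 12 sums of class and library, by Pearson correlation of log2(CPM + 1) among 16151 genes with at least 100 UMIs. The 12 sums share libraries and classes, so the correlations are a description. Gpihbp1 was closest to Egfl7 (r = 0.992), Rbp7 (0.987), Cldn5 (0.986), Adgrl4 (0.983) and C1qtnf9 (0.983). For Pparg the nearest were Fez2 (0.982), Lims2 (0.981), Spag9 (0.966), Myo1c (0.964) and Rapgef3 (0.962). Meox2 was nearest to Tmod3 (0.987), Cep85l (0.982), 4930503L19Rik (0.981), Arhgap29 (0.980) and Hlx (0.980). Lpl, with its split between FB and EC, had P4ha2 (0.967), Il3ra (0.955), Cldn15 (0.941), Fam111a (0.926) and Nid1 (0.925). Among the members themselves the correlation was 0.945 between Cd36 and Gpihbp1, 0.967 between Cd36 and Fabp4, 0.944 between Cd36 and Pparg, 0.421 between Gpihbp1 and Lpl and −0.942 between Cebpa and Meox2.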

How the data were processed

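The deposited matrices hold UMI counts per gene and barcode, made by the authors with Cell Ranger 7.0.1 (7.01 in the submitters' processing notes, with the builds mm10 and GRCm38.p5) on the mouse genome with reporter sequences added. Unfiltered matrices name Cell Ranger 4 in their header. The deposited summaries give sequencing saturation, as a percent, of 52.1%, 81.0% and 72.8% in the library order of the report, and 74.7%, 90.1% and 93.0% of reads in cells. Saturation and depth set the precision of low counts.

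Barcodes were gated as the report describes. Barcodes meeting 2 gates were dropped and no doublet caller was run. Counts were summed per library and class (or marker subset) and fitted with edgeR 4.0.16 (TMM, filterByExpr, quasi-likelihood test, library as block) in R 4.3.3, and genes of the gates and marker splits were left out of the counts of called genes. Same-library sums come from 1 pool, which is why the block was used. The fits were tested on simulated data for EC against the other classes, venous-marker EC and capsular-marker FB. Of 2-fold changes 64, 35 and 38% were recovered in this order, and of 4-fold changes 96, 90 and 92%. Many 2-fold changes within EC and FB can thus be missed, and the arterial comparison was not simulated. Alternatives were RLE size factors, no filter, DESeq2 1.42.0, no block, each library left out, doubled gates, and barcodes of low quality (1000 genes or fewer with at least 20% mitochondrial UMIs) or with Ptprc left out. Leaving out barcodes with 2 strict adipocyte genes was added after seeing the data. Intervals (scipy 1.17.1) are 95% Poisson, Clopper-Pearson or conditional binomial and cover counting error only. Free RNA means UMIs outside called barcodes.

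Members, gene lists and tests were chosen with earlier results of these data known. Named are all 10 members, per list and comparison up to 3 higher and 3 lower genes by size among those called with 1 direction in 3 of 3 libraries (a selection of which is printed), and the 5 genes nearest to 4 members. Gene positions are from GENCODE vM21 (GRCm38). 1 gene of the lists is not reported here.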

Additional observations from a re-analysis of the deposited data

Results flagged for a closer look

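UMIs of the late adipocyte genes lay in called barcodes that met no class gate and so entered no comparison of classes. Adipoq counted 75 UMIs there for Foxn1Lin female and 145 and 76 for the male libraries, Foxn1Lin and then wild type, and Plin1 counted 60, 34 and 21. These exceed the 3 UMIs that a count of 0 allows.

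For 5 members a difference within 1 library and the same difference in another had opposite signs, both beyond counting error. With 1 library a group the difference between libraries was not tested. Values are log2 differences. Gpihbp1 in mural cells against the other classes was 0.38 for Foxn1Lin female and −1.55 and −2.41 for the male libraries, Foxn1Lin and then wild type. Between venous-marker and other EC, Fabp5 was 0.38, −0.93 and −0.29, and Meox2 was −0.53, 0.48 and 0.83 in the same order. Cd36 in arterial-marker against other EC was 0.12 in Foxn1Lin male and −0.1 in wild type male. Fabp4 in capsular-marker against medullary-marker FB was −0.22 in Foxn1Lin female and 0.79 in Foxn1Lin male, where it rests on 35 and 207 UMIs.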

How the results depend on the processing

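Counts of called members, of pairs past 2-fold and of barcodes stayed within 1.5 times their value in 87 of 92 repeats. Without the replicate block, the pairing of sums by library, 1 member instead of 5 was called between venous-marker and other EC. The adipocyte count of 32 became 12 or 398 when 3 or 1 strict genes were required, and the separate rule of 4 of 12 broad genes gave 20. Without barcodes with 2 strict adipocyte genes, an alternative chosen after seeing the data, capsular-marker FB had 5 called members instead of 3, with Cd36 and Fabp5 added. Of 654 repeated member differences 610 kept direction and call, 18 lost the call, 14 gained it and 12 changed sign. Among those gained, Adipoq without barcodes with 2 strict adipocyte genes is no test, since Adipoq is 1 of those genes. None of the 12 had an adjusted p under 0.05. Without the block these were Gpihbp1 in mural cells (0.020) and capsular-marker FB (0.038) and Fabp5 in venous-marker EC (0.12). With doubled gates it was Adipoq in mural cells (−0.67), and without Ptprc barcodes Cd36 in arterial-marker EC (−0.039). Leaving out Foxn1Lin male or wild type male, the log2 difference ran over -0.62 to 0.34 (Adipoq, FB) and -0.091 to 0.79 (Adipoq, mural cells), with no value without Foxn1Lin female. Leaving out each library, it ran over -0.41 to 0.17 (Fabp5, venous-marker EC), -0.086 to 0.00011 (Fabp4, arterial-marker EC), -0.0038 to 0.11 (Cd36, arterial-marker EC), -0.014 to 0.34 (Fabp4, capsular-marker FB) and -0.0046 to 0.16 (Lpl, capsular-marker FB). The causes were not tested. Leaving out each library gave 7 to 8, 5 to 7, 3 to 4 and 8 called members in EC, FB, mural cells and TEC, 5 to 6 in venous-marker EC, 0 in arterial-marker EC and 2 to 4 in capsular-marker FB.

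The limits are 1 library a group, pooled thymi, low counts of Adipoq and Plin1, and gates on single transcripts that leave 5091 barcodes without a class. Foxn1Lin female holds the most free RNA and the shallowest barcodes, and their part in its values was not tested.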
